A study of Mus musculus with 6 samples.

Results

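The 10 genes of the complexes that start autophagy, the ULK1 kinase complex and the VPS34 lipid kinase complexes, were followed through RNA immunoprecipitates (RIP) of mouse heart. The genes were chosen by symbol as Ulk1, Ulk2, Rb1cc1, Atg13 and Atg101 for the ULK1 complex and Becn1, Pik3c3, Pik3r4, Atg14 and Uvrag for the VPS34 complexes. All 10 were found among the 24421 gene symbols of the deposited table, and 10 of 10 passed the filter on low values that left 13010 genes for testing. RNA came from whole hearts of C57BL6/J mice aged 4 weeks, in 6 libraries. The groups were Cnot3 RIP (2 libraries, RNA recovered with an antibody to Cnot3), control IgG RIP (2 libraries, RNA recovered with a control antibody) and Input (2 libraries, RNA of the heart lysate). The labels give no genotype or treatment that differs between the groups, and neither the cross-linking nor the control antibody's host is given in the sources used here. Whether replicates came from separate hearts is not stated, and the p-values reflect only how far these libraries spread, which may be technical.

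Autophagy encloses cytoplasm in a new double membrane, the autophagosome, and delivers it to lysosomes. In mammals the ULK1 complex, held down by mTORC1 and activated by AMPK, phosphorylates subunits of the VPS34 complex, which then makes the lipid PI3P on the membrane where the autophagosome grows. Heart muscle cells are long-lived and depend on autophagy to clear damaged mitochondria and protein aggregates. Cnot3 is a subunit of CCR4-NOT, the major deadenylase of cytoplasmic mRNA, and RIP asks which transcripts travel with it.

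The libraries held between 15713318 and 33479580 reads, of which 3407528 to 12500739 remained without the ribosomal RNA precursor Rn45s. The 10 genes together had 4901 and 7845 reads for Cnot3 RIP, 4089 and 3923 for control IgG RIP and 1843 and 4202 for Input, or 0.0541% to 0.0628% of the reads without Rn45s. No member was at 0 in any library, and the lowest count was 43 reads, for Atg101 in Input. Levels are given as scaled CPM, that is, reads set to a common library total and corrected with TMM factors for composition. A cardiomyocyte marker list of 8 genes, all of them detected, summed to 72339 to 85398 scaled CPM for Cnot3 RIP, 73970 to 137486 for control IgG RIP and 46969 to 53167 for Input. A list of 6 nuclear RNAs summed to 1937 to 5296 for Cnot3 RIP, 7699 to 9744 for control IgG RIP and 4801 to 6770 for Input. The summed endothelial, fibroblast, smooth muscle, leukocyte and erythroid lists overlapped among all 3 groups, and 4 of 5 erythroid genes were at 0 in at least 1 library of each group. The part of these differences in the results was not tested. The groups differ in how the RNA was recovered, so a sum of markers is not a measure of cell numbers.

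Ulk1 was the most abundant member per kilobase of transcript and Atg14 the least abundant in each of the 6 libraries. In Input, Ulk1, the main autophagy kinase, averaged 8.11 ± 1.81 scaled CPM per kilobase (SD, n = 2) and Ulk2, its close relative, 6.89 ± 1.43. Becn1 followed at 5.58 ± 0.273, Rb1cc1 at 5.43 ± 0.343 and Atg13 at 4.62 ± 0.516. The ranges of Ulk1 and Ulk2 overlapped, as did those of Becn1 and Rb1cc1, and Atg13 lay below both. Lower down, Atg101 averaged 3.29 ± 0.131, Pik3r4 2.46 ± 0.759, Uvrag 2.35 ± 0.317, Pik3c3 2.22 ± 0.255 and Atg14 1.68 ± 0.0437 scaled CPM per kilobase in Input. Atg101 stood apart from both neighbours in this order, whereas Pik3r4 overlapped Uvrag and Uvrag overlapped Pik3c3. Set among 12919 genes with a length, Ulk1 lay between the 85.3 and 87.4 percentiles of level over the 3 groups and Atg14 between the 33.6 and 44.1 percentiles.

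The order differed between groups mainly at Becn1 and Atg101. Becn1 ranked 6 of 10 per kilobase for Cnot3 RIP (3.07 ± 0.354 scaled CPM per kilobase), 5 for control IgG RIP (3.83 ± 0.308) and 3 for Input (5.58 ± 0.273). Atg101 ranked 9 for Cnot3 RIP, 9 for control IgG RIP and 6 for Input. In both immunoprecipitates Rb1cc1 joined the ULK kinases at the top, at 6.86 ± 1.31 scaled CPM per kilobase for Cnot3 RIP and 7.41 ± 2.04 for control IgG RIP, overlapping at least 1 of them in each group. These ranks describe 2 libraries per group and were not tested.

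**Figure D1:**
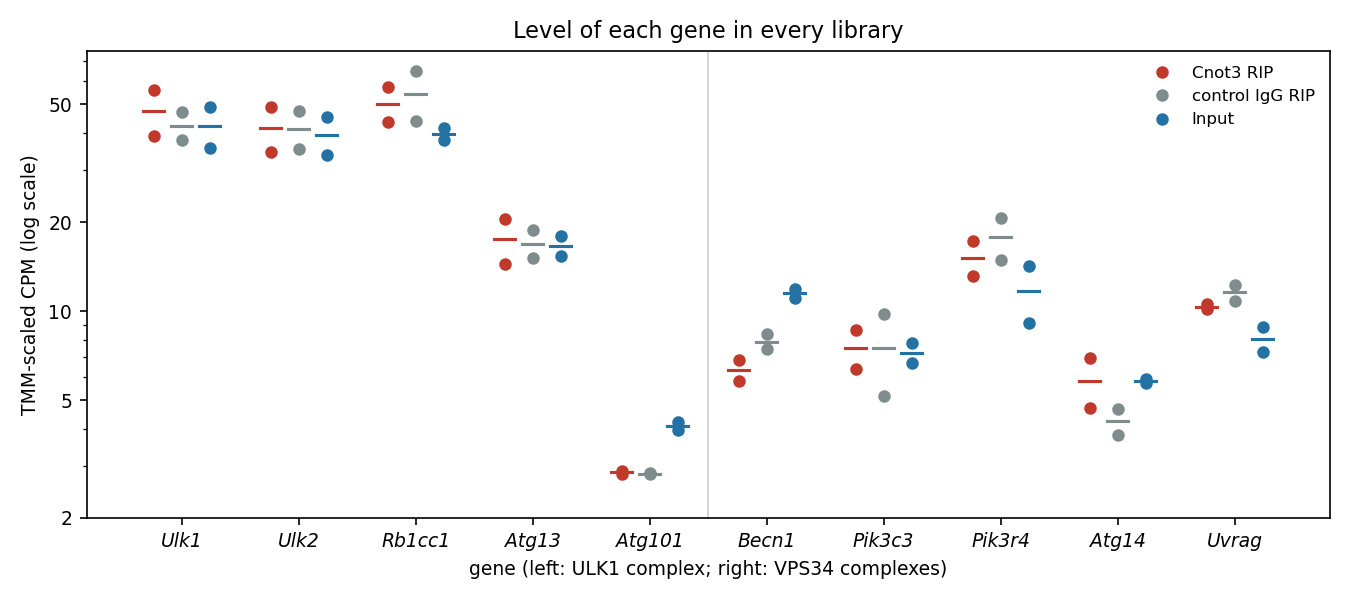
Level of the 10 genes in scaled CPM (log axis), with each point 1 library, the bar the group mean of 2 libraries, and groups ordered Cnot3 RIP, control IgG RIP and Input within each gene. Becn1 was lowest in Cnot3 RIP (5.81 and 6.84) and highest in Input (11.1 and 11.9) without overlap, but not on the CPM as deposited, where Cnot3 RIP had 8.50 and 8.92, control IgG RIP 7.15 and 10.6 and Input 7.64 and 7.35; the groups of Ulk1, Ulk2, Atg13 and Pik3c3 overlapped.

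Gene positions are those of GENCODE vM21 on the GRCm38 (mm10) genome. Among the kinases of the ULK1 complex, Ulk1 (chr5:110784488-110810097, minus strand) had 39.1 and 55.8 scaled CPM for Cnot3 RIP, 47.0 and 37.8 for control IgG RIP and 35.6 and 48.9 for Input. Ulk2 (chr11:61775649-61855073, minus strand) had 34.6 and 48.9 scaled CPM for Cnot3 RIP, 47.6 and 35.3 for control IgG RIP and 33.7 and 45.4 for Input. For both genes the groups overlapped, and the spread between replicates was as wide as any distance between groups. The share of Ulk1 in the reads of both kinases was steadier. It was 53.0% and 53.3% for Cnot3 RIP (95% exact Clopper-Pearson intervals 50.9% to 55.2% and 51.6% to 55.0%), 49.7% and 51.7% for control IgG RIP (47.2% to 52.1% and 49.2% to 54.2%) and 51.3% and 51.9% for Input (47.7% to 55.0% and 49.7% to 54.1%). Both Cnot3 RIP libraries lay above all 4 others, but the intervals, which cover counting error only, overlapped between every pair of groups.

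Rb1cc1 (chr1:6206197-6276648, plus strand) encodes FIP200, the scaffold of the complex. It had 43.5 and 57.1 scaled CPM for Cnot3 RIP, 64.9 and 43.8 for control IgG RIP and 41.6 and 38.0 for Input. Both immunoprecipitates lay above Input without overlap, and overlapped each other. Atg13 (chr2:91674618-91710576, minus strand), the adaptor that links the kinases to FIP200, had 14.4 and 20.5 scaled CPM for Cnot3 RIP, 18.8 and 15.1 for control IgG RIP and 15.3 and 18.0 for Input, with all groups overlapping. Atg101 (chr15:101284272-101290945, plus strand) encodes the partner that stabilises Atg13. It had 2.89 and 2.82 scaled CPM for Cnot3 RIP, 2.83 and 2.81 for control IgG RIP and 3.97 and 4.20 for Input, so that both immunoprecipitates lay below Input and almost on each other, whereas the CPM as deposited were 4.22 and 3.68 for Cnot3 RIP, 2.72 and 3.59 for control IgG RIP and 2.74 and 2.60 for Input.

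Within the core shared by both VPS34 complexes, Becn1 (chr11:101285952-101302286, minus strand) encodes beclin 1, the subunit to which regulators such as BCL2 bind. It had 5.81 and 6.84 scaled CPM for Cnot3 RIP (163 and 228 reads), 7.44 and 8.34 for control IgG RIP (129 and 184 reads) and 11.1 and 11.9 for Input (120 and 246 reads). No 2 of the 3 groups overlapped for Becn1, with Cnot3 RIP lowest and Input highest, but the CPM as deposited did not keep that order, at 8.50 and 8.92 for Cnot3 RIP, 7.15 and 10.6 for control IgG RIP and 7.64 and 7.35 for Input. Its exons overlap the antisense gene Cntd1 over 648 bases, 31.5% of the transcript, and the strand setting of the counting is not given in the sources used here. Cntd1 itself had 2 to 6 reads per library, and its part in the Becn1 values was not tested. Exons of Rb1cc1, Atg14 and Uvrag overlap antisense genes over 4.27%, 6.93% and 2.68% of the transcript.

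Pik3c3 encodes VPS34, the catalytic lipid kinase. It had 6.38 and 8.61 scaled CPM for Cnot3 RIP, 9.81 and 5.17 for control IgG RIP and 6.65 and 7.83 for Input, with the replicates of control IgG RIP on either side of all other libraries. Pik3r4 (chr9:105642978-105687657, plus strand) encodes VPS15, the regulatory subunit that carries VPS34 to membranes. It had 13.1 and 17.2 scaled CPM for Cnot3 RIP, 20.7 and 14.9 for control IgG RIP and 9.15 and 14.3 for Input. Control IgG RIP lay above Input here, and Cnot3 RIP overlapped both.

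Atg14 and Uvrag encode the subunits that tell the VPS34 complexes apart, since Atg14 directs complex I to autophagosome formation and Uvrag directs complex II to endosomes and later steps. Atg14 (chr14:47540893-47570649, minus strand) had 4.70 and 6.93 scaled CPM for Cnot3 RIP, 4.67 and 3.81 for control IgG RIP and 5.91 and 5.70 for Input. Control IgG RIP was lowest for Atg14, by a narrow gap of 4.70 against 4.67 to the nearer Cnot3 RIP library, whereas on the CPM as deposited Input was lowest, at 6.88 and 9.03 for Cnot3 RIP, 4.49 and 4.86 for control IgG RIP and 4.07 and 3.52 for Input. Uvrag (chr7:98885021-99141141, minus strand) had 10.2 and 10.6 scaled CPM for Cnot3 RIP, 12.3 and 10.8 for control IgG RIP and 7.30 and 8.84 for Input. Here too no 2 groups overlapped, with control IgG RIP highest and Input lowest, but on the CPM as deposited Cnot3 RIP (14.9 and 13.8) overlapped control IgG RIP (11.8 and 13.8) and Input stayed lowest (5.03 and 5.47). On the scaled CPM, Becn1 and Uvrag were the only members with all 3 groups apart, and the share of all genes in that state was not counted. Any 2 groups alone lay apart in a given direction for 21.8% to 30.6% of all genes.

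Counted against each other within a library, which needs no scaling, Atg14 took 31.7% and 39.6% of the reads of Atg14 plus Uvrag in Cnot3 RIP (95% exact Clopper-Pearson intervals 27.2% to 36.4% and 35.6% to 43.7%). The share was 27.6% and 26.0% in control IgG RIP (22.5% to 33.0% and 21.3% to 31.2%) and 44.8% and 39.2% in Input (36.4% to 53.3% and 33.7% to 45.0%). Control IgG RIP was thus lowest, and Cnot3 RIP replicate 2 lay inside the Input range while replicate 1 lay below it. With 2 libraries against 2, an exact permutation test cannot give a p under 0.333, and the shares are given with no test.

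**Figure D2:**
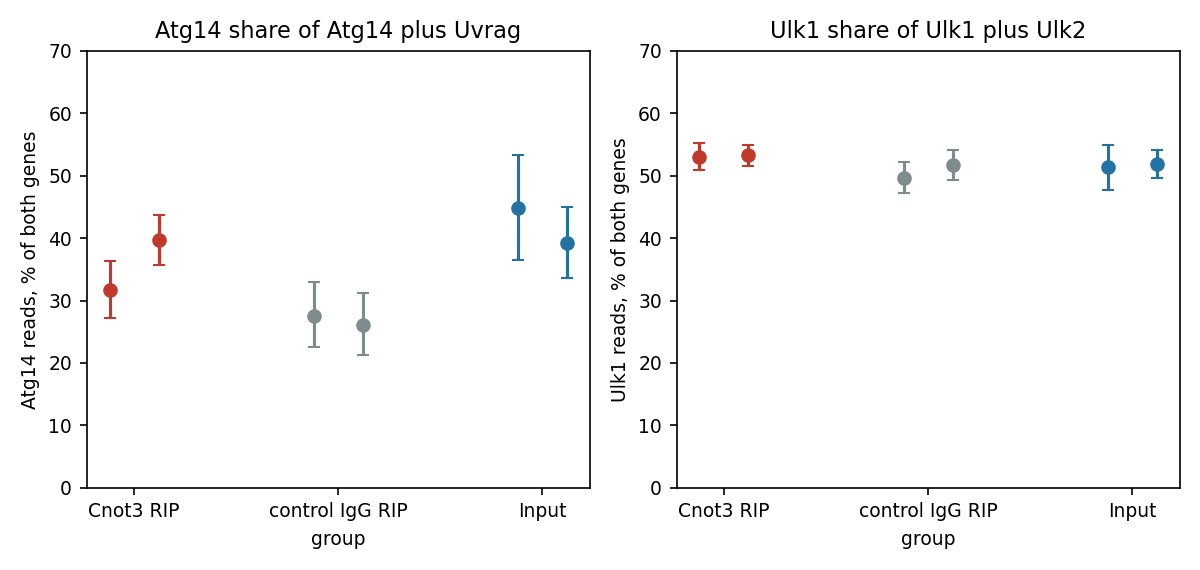
Percent of reads of Atg14 in Atg14 plus Uvrag (left) and of Ulk1 in Ulk1 plus Ulk2 (right), with each point 1 library and the bars 95% exact Clopper-Pearson intervals for counting error. The Atg14 share was 31.7% and 39.6% for Cnot3 RIP, 27.6% and 26.0% for control IgG RIP and 44.8% and 39.2% for Input, whereas the Ulk1 share stayed between 49.7% and 53.3%.

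The test of Cnot3 RIP against control IgG RIP asks what the Cnot3 antibody recovers beyond background, and none of the 10 genes passed the test in either direction. With limma, 0 of 10 were called higher, where 1.54% of all genes tested were, and 0 of 10 were called lower, where 0.277% were, at a Benjamini-Hochberg adjusted p under 0.05. At an unadjusted p under 0.05 the count was still 0 of 10, against 17.3% of all genes, and edgeR's quasi-likelihood test and DESeq2 also called 0 members. Of all genes, edgeR's test called 1.86% higher and 0.415% lower, and DESeq2 4.33% and 1.21%. The log2 fold changes ran from −0.31 for Becn1 to 0.42 for Atg14, with a median of 0.01 beside a median of −0.00 over all genes.

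Atg14 had the highest fold change of the members against control IgG RIP, 0.42 on the log2 scale (95% interval −0.19 to 1.02, limma adjusted p = 0.499), and its groups did not overlap. Becn1 was at −0.31 (−0.82 to 0.20, limma adjusted p = 0.567) and Uvrag at −0.15 (−0.66 to 0.36, limma adjusted p = 0.829), in both cases also without overlap, though Uvrag came out at 0.16 on the CPM as deposited. Non-overlapping groups were common, since 24% of all genes were higher and 21.8% lower in this way, and the members' 1 of 10 and 2 of 10 are near or below those shares. The ULK1 complex genes lay closer to 0, with Ulk1 at 0.15, Atg13 at 0.03, Atg101 at 0.02, Ulk2 at 0.01 and Rb1cc1 at −0.10, the last of which was 0.22 on the CPM as deposited. Pik3c3 was at 0.05, and Pik3r4 at −0.22, or 0.10 on the CPM as deposited. The 95% intervals of 9 of the 10 genes lay within a 2-fold change in either direction, the exception being the upper bound of Atg14.

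Against Input, Becn1 had the lowest value of the members in Cnot3 RIP, and none of the 10 genes passed limma. 0 of 10 were called higher (5.86% of all genes) and 0 of 10 lower (2.47%), with a median log2 fold change of 0.06 for the members and 0.06 for all genes. Becn1 stood at −0.84 (SE 0.23, 95% interval −1.35 to −0.33, limma adjusted p = 0.0526), which is 0.559 of the Input level with an interval of 0.392 to 0.796. It was the only member at an unadjusted p under 0.05, where 27.2% of all genes were. edgeR's quasi-likelihood test put Becn1 at −0.86 with an adjusted p of 0.0491 and DESeq2 at −0.89 with an adjusted p of 0.0416, and both tools called no other member. Of all genes, edgeR's test called 6.19% higher and 2.67% lower, and DESeq2 8.06% and 3.92%. The sign of Becn1 depended on the scaling, since on the CPM as deposited it was 0.21, against a median of 1.02 over all genes on that scale. Becn1 was negative in 16 of 17 alternative settings, the deposited CPM being the exception.

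Other members differed from Input by less. Atg101 was at −0.48 (95% interval −1.04 to 0.07, limma adjusted p = 0.240), and at 0.52 on the CPM as deposited. Pik3r4 was at 0.39, Uvrag at 0.36 and Rb1cc1 at 0.32, while Ulk1, Ulk2, Atg13, Pik3c3 and Atg14 lay between −0.02 and 0.16. Groups did not overlap for Rb1cc1 and Uvrag on the higher side, 2 of 10 where 30.6% of all genes did so, and for Atg101 and Becn1 on the lower side, 2 of 10 where 26.9% did. For 7 of the 10 genes the 95% interval lay within a 2-fold change in either direction.

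Control IgG RIP against Input, the background of the procedure, shared its libraries with the other comparisons and called 0 of 10 members higher (2.58% of all genes) and 0 of 10 lower (1.49%) with limma. edgeR's quasi-likelihood test and DESeq2 called 0 as well. Of all genes, edgeR's test called 1.69% higher and 0.915% lower, and DESeq2 3.37% and 2.09%. Only Becn1 had an unadjusted p under 0.05 with limma, where 24.9% of all genes had one. Becn1 was at −0.53 (95% interval −1.04 to −0.02, limma adjusted p = 0.187), Atg101 at −0.50 and Atg14 at −0.44, and all of these turned positive on the CPM as deposited, at 0.21, 0.21 and 0.29. On the other side were Pik3r4 at 0.61 (−0.05 to 1.26, limma adjusted p = 0.230), Uvrag at 0.51 (limma adjusted p = 0.201) and Rb1cc1 at 0.42. These 3 genes lay above Input without overlap, 3 of 10 beside 29.7% of all genes, and Atg101, Becn1 and Atg14 lay below it, 3 of 10 beside 29.3%. The remaining members, Ulk1, Ulk2, Atg13 and Pik3c3, lay between −0.02 and 0.07, with a median over all 10 of 0.02 beside 0.01 for all genes.

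**Figure D3:**
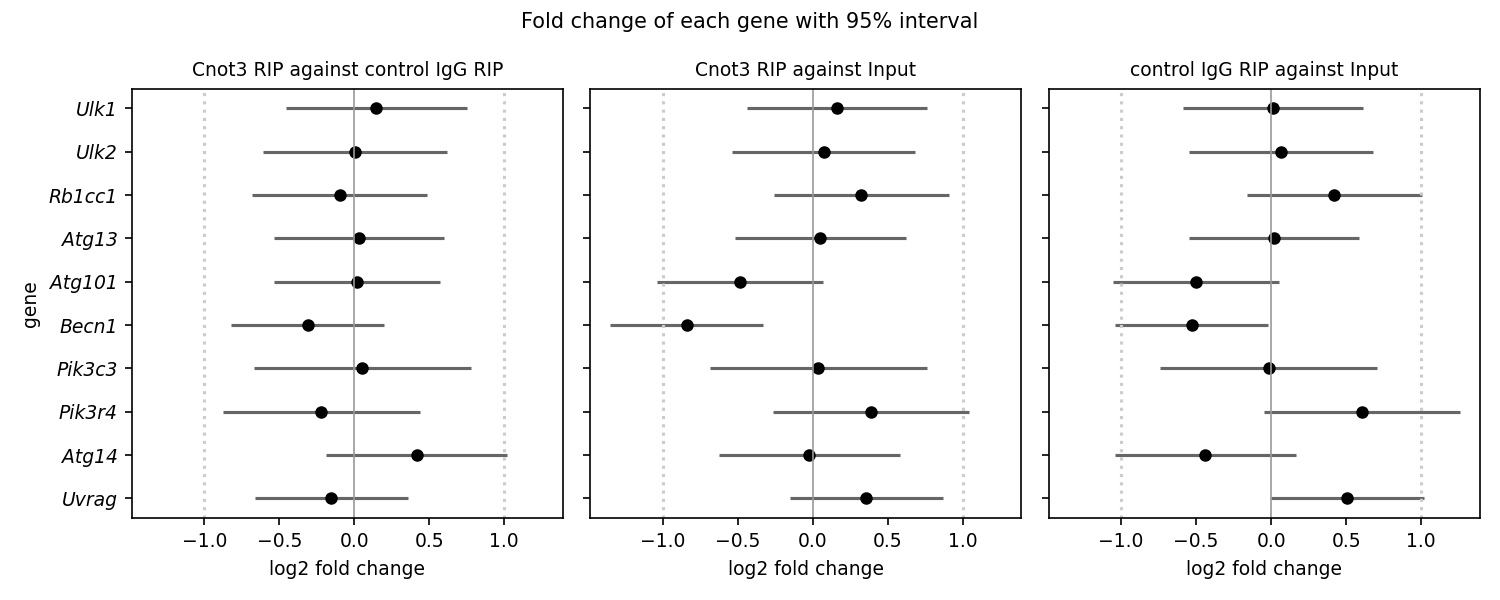
Log2 fold change of each gene (point) with its 95% interval from limma (line) in the 3 comparisons, on TMM-scaled values, with dotted lines at a 2-fold change. Every interval spans 0 except that of Becn1 against Input, at −0.84 for Cnot3 RIP and −0.53 for control IgG RIP, both of which turned to 0.21 on the CPM as deposited.

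Rn45s took 53.1% and 51.1% of the reads for Cnot3 RIP, 60.2% and 59.4% for control IgG RIP and 78.3% and 79.2% for Input, so values against Input depend on the scaling. On the CPM as deposited, the median of all genes moved by 0.30 for Cnot3 RIP against control IgG RIP, by 0.96 for Cnot3 RIP against Input and by 0.69 for control IgG RIP against Input. On that scale limma called 8 of 10 members higher in Cnot3 RIP than in Input, all but Atg101 and Becn1, beside 59.6% of all genes. It called 6 of 10 higher for control IgG RIP than for Input, beside 33.7% of all genes, and 0 of 10 for Cnot3 RIP against control IgG RIP, beside 4.55%. The medians of the members on that scale were 1.13 for Cnot3 RIP and 0.77 for control IgG RIP against Input, beside 1.02 and 0.70 for all genes.

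On the scaled CPM, replicates within a group differed in the same direction for most members. Cnot3 RIP replicate 2 exceeded replicate 1 for 9 of 10 members, the exception being Atg101, and for 55.3% of all genes. Control IgG RIP replicate 1 exceeded replicate 2 for 9 of 10, the exception being Becn1, and for 49.4% of all genes. Input replicate 2 exceeded replicate 1 for 8 of 10, all but Rb1cc1 and Atg14, and for 51.1% of all genes. These directions depended on the scaling. On the CPM as deposited, only Ulk2, Rb1cc1, Pik3c3 and Pik3r4 were higher in control IgG RIP replicate 1. There Uvrag joined the exceptions for Cnot3 RIP, and Atg101 and Becn1 joined those for Input. Leaving out 1 of the 6 libraries leaves 1 in its group, so only the members' fold changes are given here. The median log2 fold change of the members against control IgG RIP was then 0.18 or −0.20 with the first or second Cnot3 RIP library left out, and 0.15 or −0.22 with the first or second control IgG RIP library left out. Becn1 in Cnot3 RIP against Input stayed between −0.95 and −0.73.

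Transcript length moved with the fold changes against Input. Over all genes the median log2 fold change of Cnot3 RIP against Input was −0.50 for transcripts under 1500 nucleotides, −0.20 from 1500 to 2500, 0.07 from 2500 to 4000, 0.29 from 4000 to 6000 and 0.48 above 6000. The same medians for control IgG RIP against Input were −0.46, −0.19, −0.00, 0.17 and 0.42, and those for Cnot3 RIP against control IgG RIP ran only from −0.09 to 0.10. The shortest member, Atg101 with 1241 nucleotides, and the longest, Rb1cc1 with 7334, lay near these medians, at percentiles 51.3 and 35.8 of their length classes for Cnot3 RIP against Input. Becn1, with 2059 nucleotides, lay at percentile 6.20 of its class there and at percentile 23.4 for control IgG RIP against Input. Atg14 and Uvrag, nearly equal in length at 3450 and 3436 nucleotides, lay at percentiles 16.8 and 82.3 of the same class for control IgG RIP against Input. The part of length in the members' values was not tested.

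**Figure D4:**
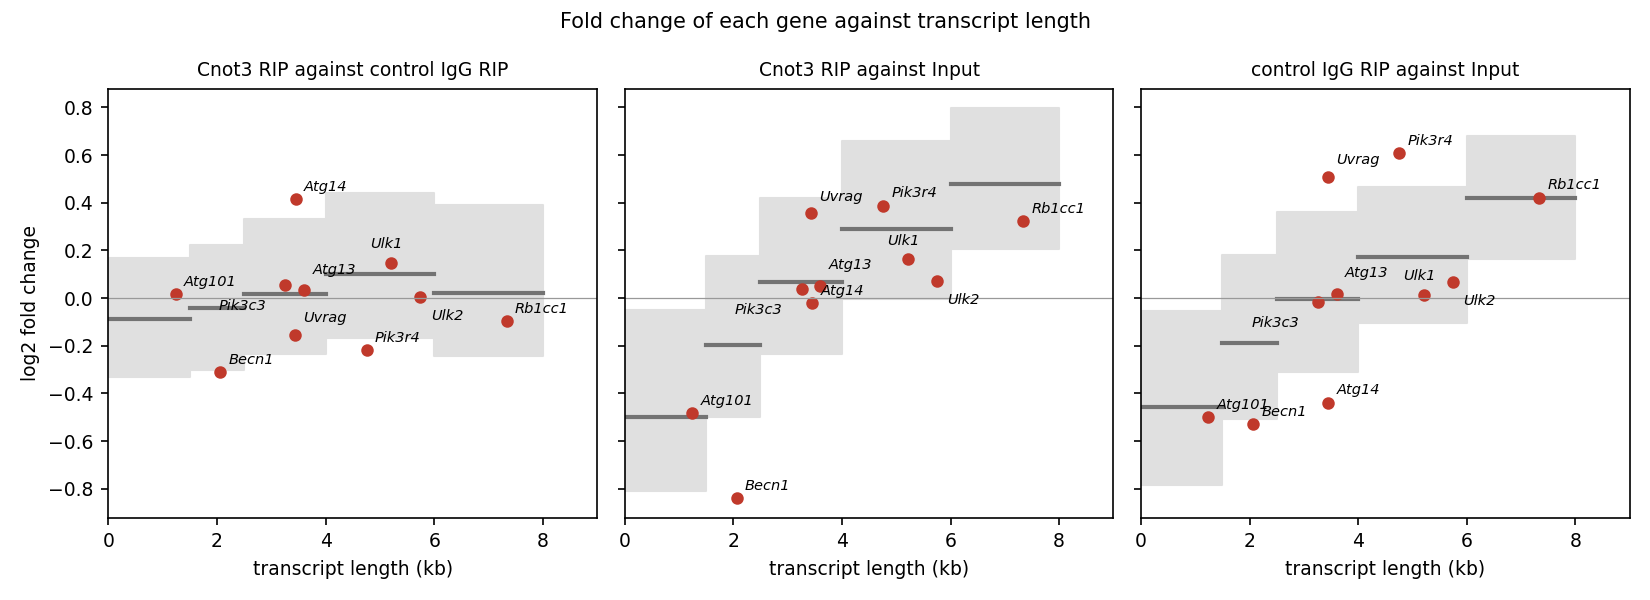
Log2 fold change of each gene (points) against transcript length in kilobases, with the median (line) and the interquartile range (grey) of all genes in 5 length classes; the last class is drawn to 8 kilobases. Against Input the grey bands climb with length, and Becn1 at −0.84 lies below the band of its class in Cnot3 RIP; on the CPM as deposited it was at 0.21.

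Short elements in 3′ UTRs through which RNA-binding proteins are known to recruit CCR4-NOT were looked up, and are printed because members differ in whether they carry them. The AU-rich element core TATTTAT, bound by the Zfp36 family, occurred once each in the 3′ UTRs of Ulk1, Ulk2 and Atg13 and in no other member, on the transcript strand. The Pumilio element TGTANATA occurred once each in Atg14 and Pik3c3, and the 2 motifs do not overlap in any member. All but the Pik3c3 element are printed here 5′ to 3′ on the transcript strand from the GRCm38 (mm10) genome with GENCODE vM21 exons, with the motif in capitals and 10 bases on either side.
Ulk1, chr5:110784727-110784753 (minus strand): taacatgttgTATTTATtgctttgtgg
Ulk2, chr11:61776401-61776427 (minus strand): atttttacatTATTTATctgtatgaaa
Atg13, chr2:91675637-91675663 (minus strand): ccatggtaaaTATTTATtactttcaga
Atg14, chr14:47541320-47541347 (minus strand): atccacctgtTGTAAATAgtcttaaata

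TATTTAT was present in 28.9% of the 3′ UTRs of 11965 tested genes, and in 35.7%, 42.2% and 36.8% of those within 20% of the length of the Ulk1, Ulk2 and Atg13 3′ UTRs. TGTANATA was present in 25.5% of all, in 33.3% of those within 20% of the length of the Atg14 3′ UTR and in 9.92% of those within 20% of that of Pik3c3. Over all genes the median log2 fold change of Cnot3 RIP against control IgG RIP was −0.04 with no TATTTAT, 0.12 with 1 and 0.25 with 2 or more. For TGTANATA it was −0.03 with none, 0.13 with 1 and 0.29 with 2 or more. The medians also rose with the number of sites in control IgG RIP against Input, the background of the procedure. They were −0.06, 0.07 and 0.14 for TATTTAT and −0.06, 0.08 and 0.18 for TGTANATA there. The part of 3′ UTR length in these medians was not tested. The members with 1 TATTTAT stood at 0.15 (Ulk1), 0.01 (Ulk2) and 0.03 (Atg13), and those with 1 TGTANATA at 0.42 (Atg14) and 0.05 (Pik3c3). A match describes the letters in the window and says nothing of binding.

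The genes around the 2 complexes were taken from 6 lists of 92 genes, of which 91 were in the table and 88 were tested. In Cnot3 RIP against control IgG RIP, 0 of 88 passed limma in either direction, with 9 at an unadjusted p under 0.05 (17.3% of all genes) and 0 by edgeR's quasi-likelihood test and by DESeq2, and the median log2 fold change was 0.00 beside −0.00 for all genes. Without Cnot3 RIP replicate 1 limma called 3 higher, namely Wipi1, a PI3P-binding protein, at 0.96 and the proteases Atg4c and Atg4d, which process LC3, at 1.15 and 1.48, where 7.78% of all genes were called higher. The list of regulators of the 2 complexes (19 tested) had the highest median of the 6, 0.26. The others were at −0.08 for PI3P effectors with ATG9 and ATG2 (12 tested), 0.06 for AMPK and mTORC1 input (17), −0.05 for PI3P turnover (13), 0.06 for LC3 conjugation (15) and −0.01 for autophagy receptors (12).

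Against Input, 5 of these 88 genes were higher and 3 lower in Cnot3 RIP with limma, beside 5.86% and 2.47% of all genes tested. On the CPM as deposited the counts were 65 higher and 0 lower, beside 59.6% and 0.0538% of all genes. The list medians were 0.28 for regulators of the 2 complexes, 0.04 for PI3P effectors, −0.00 for AMPK and mTORC1 input, 0.22 for PI3P turnover, −0.17 for LC3 conjugation and −0.22 for receptors, beside 0.06 for all genes. The 3 lower genes encode ubiquitin-like proteins that coat the autophagosome membrane, and on the CPM as deposited none of them was called, with Map1lc3a at −0.24, Gabarap at −0.16 and Map1lc3b at 0.13. Map1lc3a fell to 37.8 and 28.7 scaled CPM in Cnot3 RIP, against 74.8 and 90.8 in Input (log2 fold change −1.32, limma adjusted p = 0.0165). Gabarap fell to 21.3 and 18.2 for Cnot3 RIP, against 45.4 and 48.1 for Input (−1.23, limma adjusted p = 0.0150). Map1lc3b had 15.7 and 17.8 for Cnot3 RIP, against 29.7 and 35.2 for Input (−0.94, limma adjusted p = 0.0359, and 0.13 on the CPM as deposited). Their groups did not overlap, and the transcripts of Map1lc3a and Gabarap, at 1045 and 1122 nucleotides, belong to the shortest length class, whose median was −0.50.

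The 5 genes that rose in Cnot3 RIP against Input were Bcl2, the apoptosis inhibitor that binds beclin 1, Ulk3, a kinase related to Ulk1, Pik3c2b, a class II lipid kinase, Atg7, the enzyme that activates LC3, and 5031414D18Rik, the table's symbol for Rubcnl. Bcl2 had 15.1 and 12.7 scaled CPM in Cnot3 RIP, against 7.02 and 4.78 in Input (log2 fold change 1.22, limma adjusted p = 0.0352). Ulk3 had 4.45 and 9.78 for Cnot3 RIP, against 1.85 and 2.51 for Input (1.51, limma adjusted p = 0.0400), and Pik3c2b had 56.3 and 77.8 for Cnot3 RIP, against 28.9 and 25.2 for Input (1.29, limma adjusted p = 0.0177). Atg7 had 11.9 and 14.2 for Cnot3 RIP, against 6.01 and 7.10 for Input (0.97, limma adjusted p = 0.0367). Rubcnl rested on 30 and 67 reads in Cnot3 RIP and on 3 and 9 in Input. In each case both Cnot3 RIP libraries lay above both Input libraries. So did both control IgG RIP libraries. They had 8.60 and 12.7 scaled CPM for Bcl2, 3.64 and 4.76 for Ulk3 and 41.9 and 48.3 for Pik3c2b. Atg7 had 8.25 and 8.16 and Rubcnl 0.981 and 1.27 there. None of the 5 passed limma against control IgG RIP, with adjusted p from 0.187 (Atg7) to 0.762 (Rubcnl). The transcripts of Bcl2 and Pik3c2b belong to the longest length class, with a median of 0.48, and the others to a class with 0.07.

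In control IgG RIP against Input, which uses the same Input libraries, 2 of the 88 genes were called lower and 2 higher, beside 1.49% and 2.58% of all genes. On the CPM as deposited 0 were lower and 35 higher, beside 0.0769% and 33.7% of all genes. Map1lc3a was lower at −1.15 (limma adjusted p = 0.0362) and Gabarap at −1.30 (limma adjusted p = 0.0190), and at −0.39 and −0.54 on the CPM as deposited. The phosphatase gene Mtmr7 at 1.63 (limma adjusted p = 0.0496) and Atg16l2, a relative of the LC3-conjugation factor Atg16l1, at 1.32 (limma adjusted p = 0.0475) rose, with 37 and 33 reads of Mtmr7 for control IgG RIP and 6 and 6 for Input. The fold changes of all these called genes kept their sign with any library left out. With 1 library left out its group holds only 1, and the limma calls over all genes moved as well. Such fits thus do not show which library the pathway calls rest on. Leaving out either Input library removed all of them in both comparisons with Input, and most of those over all genes. Leaving out either control IgG RIP library did the same in control IgG RIP against Input. In Cnot3 RIP against Input, fewer pathway genes were called without Cnot3 RIP replicate 2 and more without replicate 1, as over all genes. Leaving out a control IgG RIP library, which enters Cnot3 RIP against Input only through the spread and the scaling, left fewer calls there, as over all genes. Taking the library size without Rn45s, or testing without a filter, left 1 higher and 3 lower for Cnot3 RIP against Input, and 0 higher with 1 or 2 lower for control IgG RIP against Input. Of all genes, 3.32% were higher and 1.31% lower for Cnot3 RIP against Input without Rn45s, and 2.27% and 0.736% without a filter. For control IgG RIP against Input the shares were 0.907% and 0.699% without Rn45s, and 1.62% and 0.559% without a filter.

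Members differed in how alike their profiles over the 6 libraries were, measured as the root mean square difference of centred log2 values. Ulk1 and Ulk2 were the closest pair at 0.0687, then Ulk2 and Atg13 at 0.0701, and Becn1 and Pik3r4 were the farthest apart at 0.608. Among all tested genes, the profiles most like that of Ulk1, the most abundant member, were those of Qars at 0.0340, Slc20a2 at 0.0441 and Tldc1 at 0.0626. Those most like Atg14, the least abundant, were Cstf1 at 0.0503, Rragb at 0.0546 and Armc10 at 0.0551. With 6 libraries and 13010 genes such nearness is a description only.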

How the data were processed

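Libraries were grouped by the antibody and title in the sample labels, and table columns were matched to samples by name. The authors deposited 1 table in CPM, with every library scaled to the same sum, Rn45s included. Per the submitters' processing notes, mm10 was used with TopHat2 2.1.0, Bowtie2 2.2.5, CASAVA 1.8, edgeR and FastQC. Counter, annotation and strand setting were among the details not given in the sources used here. With the value of 1 read taken from the smallest steps, 100% of values were whole reads within 0.01 read, which gave the library totals. A count of 0 would allow 3 reads, or 0.0900 to 0.277 scaled CPM.

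The filter was edgeR's filterByExpr with a minimum count of 10 (0.538 CPM in 2 or more libraries), and 13010 genes passed. TMM factors came from edgeR 4.0.16, and limma 3.58.1 in R 4.3.3 modelled log2(scaled CPM + 0.25) with a trended prior on all 6 libraries, with 3 group means, 3 residual and 6.24 prior degrees of freedom. Fold changes on this scale understate low genes. P-values were Benjamini-Hochberg adjusted over 13010 genes and called under 0.05. The fit was tested on simulated data. Lengths, exons and 3′ UTRs came from GENCODE vM21 transcripts cut to RefSeq gene bounds, with a length for 99.3% of tested genes.

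Alternatives were edgeR's quasi-likelihood test and DESeq2 1.42.0 on recovered reads, DESeq2 size factors, deposited CPM, library size without Rn45s, pseudocounts of 0.05 and 1, no filter, a replicate block, only the 4 libraries compared, and leaving out each library. The members and gene lists were chosen with earlier results of these data known. All members were named, and of each pathway list every called gene up to 4. Wipi1, Atg4c and Atg4d were named after their values were seen. Mtmr8 was not analysed here.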

Additional observations from a re-analysis of the deposited data

How the results depend on the processing

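Of the 17 alternatives, those that kept 2 libraries in both groups called 0 members in Cnot3 RIP against control IgG RIP. They include edgeR's quasi-likelihood test and DESeq2. Of all genes they called from 0.140% (no filter) to 5.84% (control IgG RIP numbers crossed) higher, and from 0.00537% to 2.34% lower. Members called in Cnot3 RIP against Input numbered 8 on the CPM as deposited, where 59.6% of all genes were higher. Becn1 alone was called, and lower, with edgeR's quasi-likelihood test (2.67% of all genes lower) and with DESeq2 (3.92%). The same held for the pairing with the control IgG RIP numbers crossed (7.09%). In control IgG RIP against Input 6 members were called on the CPM as deposited, where 33.7% of all genes were higher. The median log2 fold change of the members was 0.32, 1.13 and 0.77 on that scale in the 3 comparisons in the order given, and Atg14 in Cnot3 RIP against Input turned to 1.01 and was called. With 1 library left out, the median ran from −0.22 to 0.18 against control IgG RIP, from −0.17 to 0.31 for Cnot3 RIP against Input and from −0.16 to 0.23 for control IgG RIP against Input, beside a replicate SD of 0.20. The Ulk1 share per kilobase was 55.6% for Cnot3 RIP, 53.1% for control IgG RIP and 54.0% for Input. Of the members' fold changes under all alternatives, 24 of 170, 16 of 170 and 17 of 170 took the other sign without being called.

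Over all genes, limma called 200 higher and 36 lower against control IgG RIP, DESeq2 563 and 157, and limma without a filter 26 and 1. Leaving out a Cnot3 RIP library gave 1012 and 263 (the first) or 29 and 0 (the second), and leaving out one of control IgG RIP gave 0 and 0 (the first) or 79 and 35 (the second). In Cnot3 RIP against Input the counts of 762 and 321 became 35 and 4 or 8 and 2 without an Input library.

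The replicate numbers did not pair the libraries in the same way across groups. Differences between replicates correlated at −0.32 (Cnot3 RIP and control IgG RIP), 0.34 (Cnot3 RIP and Input) and −0.33 (control IgG RIP and Input) across genes. Only Cnot3 RIP and Input thus ran together by number, and whether equal numbers mark a shared experiment was not tested. With the replicate block limma called 0 members in all 3 comparisons, and 292 higher and 93 lower genes against control IgG RIP. Of the 88 pathway genes it called 4 higher and 2 lower in place of 5 and 3 for Cnot3 RIP against Input, without Atg7 and Map1lc3b, and 0 and 1 (Gabarap) in place of 2 and 2 for control IgG RIP against Input. Of all genes the block called 4.96% higher and 1.28% lower for Cnot3 RIP against Input, and 1.91% and 0.592% for control IgG RIP against Input. The pairing with the control IgG RIP numbers crossed, chosen after seeing the data, called 760 and 305 genes (0 and 1 of the pathway genes) against control IgG RIP, 1576 and 922 (13 and 6, with 1 member) for Cnot3 RIP against Input and 1050 and 821 (10 and 6) for control IgG RIP against Input, with 0 members in the first and last. Depth limits Atg101 and Atg14 most, at 43 to 231 reads per library.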
